A study of Mus musculus with 12 samples.

Results

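The alleles compared here were those in which Epha2 is severely disrupted, Epha2-indel722 and Epha2-null, set against those that do not disrupt it severely, Epha2-Q722 and wild type. All mice were on the C57BL/6J strain and the mutants were homozygous. Lenses were taken at postnatal day 7 (P7), several lenses were pooled for each library, and each of the 4 genotypes had 3 libraries, so that 6 libraries of disrupted lenses were compared with 6 libraries of the other lenses, which are all 12 libraries of the series. Epha2-indel722 came from a single off-target founder of a CRISPR/Cas9 edit and carries an in-frame replacement of 22 codons by a shorter stretch of new codons. Epha2-null carries a pMCIneo vector inserted in exon 5 of a stock line, Epha2-Q722 carries a missense change in the kinase domain that models a human variant linked to age-related cataract, and wild type lenses carry no engineered allele. Several correctly targeted founders were crossed to obtain Epha2-Q722. For each mutant genotype, the allele and whatever else its mice carry cannot be told apart.

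EPHA2 is a receptor tyrosine kinase that binds ephrin-A ligands on the surface of neighboring cells and passes signals in both directions across the contact. The lens has an anterior epithelium and a mass of fiber cells, which elongate from the epithelium at the equator, fill with crystallin proteins and pack into hexagonal columns. EPHA2 is known for its part in aligning these cells, and human EPHA2 variants are known causes of cataract.

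The engineered codons lie in exon 13 of the 17 exons of Epha2, on the forward strand of chromosome 4 (GRCm38, chr4:141322224-141322337), inside the part that encodes the tyrosine kinase domain. The wild type coding sequence from GENCODE vM21 is shown because it is the stretch that separates Epha2-indel722 from the other alleles. Capitals mark the 22 codons that are replaced in Epha2-indel722, at chr4:141322248-141322313, and Epha2-Q722 differs from this sequence within the first capital codon. The flanking 8 codons on each side are in lower case.
Epha2 exon 13, wild type: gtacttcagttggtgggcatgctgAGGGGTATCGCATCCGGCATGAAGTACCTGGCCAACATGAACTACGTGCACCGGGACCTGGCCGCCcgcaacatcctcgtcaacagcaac

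Epha2 transcripts were fewer in both disrupted genotypes. Values are normalized CPM, read counts scaled to each library's size (CPM) and then with TMM factors, which equalize the level of most genes across libraries. Epha2 had 21.6, 20 and 20.4 CPM in Epha2-indel722 lenses and 30.6, 36.2 and 36.9 CPM in Epha2-null lenses, against 45.0, 47.3 and 54.4 CPM in Epha2-Q722 lenses and 63.1, 51.4 and 56.0 CPM in wild type lenses. All 6 disrupted libraries lay below all 6 others. In the mean contrast, which sets the mean of Epha2-indel722 and Epha2-null against the mean of Epha2-Q722 and wild type, the log2 fold change was -0.98 (SE 0.062, adjusted p = 3.3e-10 by edgeR's quasi-likelihood test), and Epha2-indel722 lay below Epha2-null by a log2 difference of -0.74 (SE 0.091, adjusted p = 7.1e-06). Epha2-Q722 and wild type differed by -0.21 on the log2 scale (SE 0.084, adjusted p = 0.16). Counts are per gene, so they do not show which exons gave the reads that remained in Epha2-null.

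The question asked of the whole table was which genes differ in the same direction in Epha2-indel722 and Epha2-null from both Epha2-Q722 and wild type. A gene was said to have moved alike when all 4 comparisons of a disrupted genotype with another genotype (Epha2-indel722 over wild type, Epha2-indel722 over Epha2-Q722, Epha2-null over wild type, Epha2-null over Epha2-Q722) had the same sign and an adjusted p of at most 0.05. These comparisons share libraries in pairs. Of 8676 genes tested, 180 (2.07%) moved alike, 86 of them higher (0.991%) and 94 lower (1.08%) in disrupted lenses. The 3 members closest to the limit were Sox6, Ints6 and Cep68. Sox6 is listed only through the disrupted libraries, so it had to differ to be listed and its p is not given. The largest adjusted p among the comparisons (edgeR) was 0.0494 for Ints6 and 0.0493 for Cep68. The closest genes outside the limit were Dyrk2, Itsn1 and Slc4a1ap, at 0.0506, 0.0507 and 0.0509.

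Most shared changes were small. The median log2 fold change was 0.55 over the 86 genes that rose and -0.47 over the 94 that fell, the median size over the 180 being 0.50 against 0.09 over all genes tested. The disrupted and other libraries did not overlap in 85 of the genes that rose and 91 of those that fell, where 2.60% and 2.55% of all genes lay entirely above or entirely below, a separation that the rule itself favors. In 7 genes that rose and 2 that fell, each of the 4 comparisons was also at least 2-fold. Levels averaged at least 100 CPM in 26 of the 180 genes and under 10 CPM in 38 (21.1%, against 38.1% of all genes), and 7 of the 180 were not protein coding. In 5 of the 86 genes that rose (Dcdc2a, Gm42808, Sox6, Apc2 and Mtus2), and in 10 of all genes, no library outside the disrupted genotypes exceeded the 3 CPM at which the table begins. Across all 8676 genes, the comparisons that share no library had a Pearson correlation of 0.20 for Epha2-indel722 over Epha2-Q722 with Epha2-null over wild type, and of -0.15 for Epha2-indel722 over wild type with Epha2-null over Epha2-Q722. Genes are not independent replicates, and these values describe the table as a whole.

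Counts in each direction depended on the scaling. TMM put the median of all genes at 0, with 794 genes higher (9.15%) and 808 lower (9.31%) at an adjusted p of at most 0.05. Scaled by library totals, the median gene was 0.15 higher in disrupted lenses on the log2 scale, with 3131 genes higher (36.1%) and 291 lower (3.35%), and 197 genes moved alike upward and 22 downward. Of the genes that moved alike under TMM, 76 of the 86 higher and 22 of the 94 lower still did so, and 0 changed sign. Changes given here are therefore relative to the median gene.

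**Figure D1:**
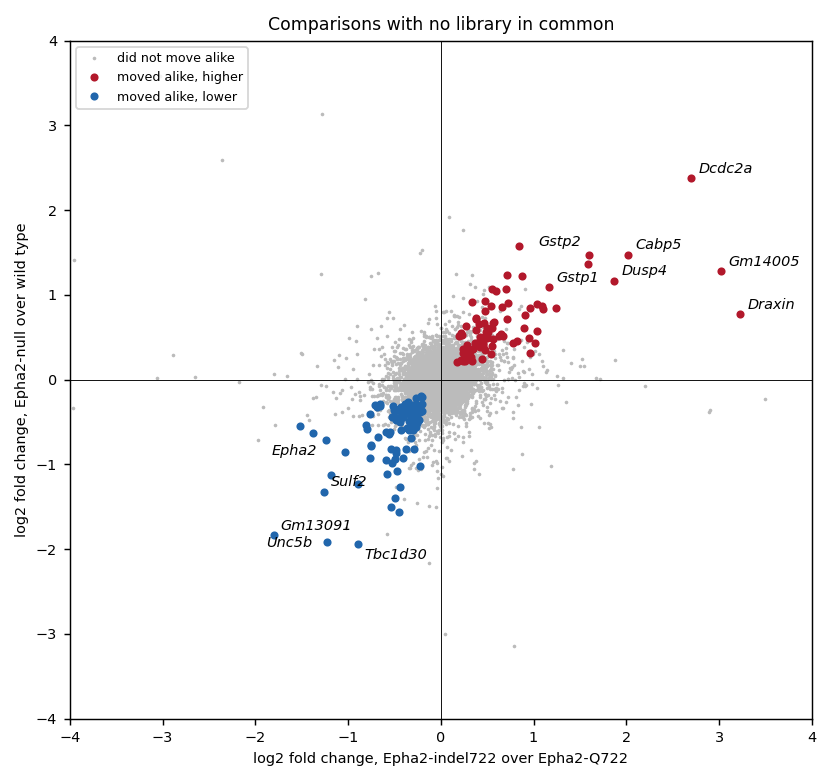
Each point is a gene, with the log2 fold change of Epha2-indel722 over Epha2-Q722 on the horizontal axis and of Epha2-null over wild type on the vertical axis, which have no library in common. The 86 genes that moved alike and were higher (red) lie at the upper right, led by Dcdc2a, and the 94 that were lower (blue) at the lower left, while other genes are in grey. Both comparisons are part of the rule, so the positions of the colored genes follow from their selection. The axes stop at 4 in each direction, which leaves out 6 genes, 1 of them (Clic5) a gene that moved alike.

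Dcdc2a, which encodes a doublecortin-domain protein that binds microtubules and is found in cilia, had the largest shared rise. It had 8.35, 7.54 and 7.92 CPM in Epha2-indel722 lenses and 8.74, 7.87 and 6.51 CPM in Epha2-null lenses, against 0.905, 0.951 and 1.74 CPM in Epha2-Q722 lenses and 1.13, 1.77 and 1.48 CPM in wild type lenses. The 2 disrupted genotypes were at like levels, with a log2 difference of 0.04 (SE 0.13, adjusted p = 0.90), and the ranges of disrupted and other lenses were far apart. The fitted log2 fold change was 2.54 (SE 0.13), a 5.81-fold higher level. The table lists genes with over 3 CPM in at least 6 libraries, and Dcdc2a was over it in the disrupted libraries and in none of the others, so it had to differ to be listed and its p is not given. Dcdc2a overlaps Gm11348 on the opposite strand.

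Draxin, a secreted repulsive axon guidance protein known to bind netrin and its receptor DCC, rose in both genotypes but by very unequal amounts. It had 49.5, 47.9 and 45.6 CPM in Epha2-indel722 lenses and 8.45, 7.31 and 6.97 CPM in Epha2-null lenses, against 5.82, 4.96 and 4.60 CPM in Epha2-Q722 lenses and 4.22, 4.88 and 4.14 CPM in wild type lenses. The rise over the mean of both other genotypes was 3.33 in Epha2-indel722 and 0.67 in Epha2-null on the log2 scale, and the difference between these 2 was 2.65 (adjusted p = 3.5e-16). Draxin lies on chromosome 4 at 148098437 to 148130698, on the same chromosome as Epha2, and overlaps Mad2l2 on the opposite strand.

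Cabp5, a calcium-binding protein known from retinal bipolar cells, had 34.0, 30.5 and 25.2 CPM in Epha2-indel722 lenses and 21.8, 23.2 and 20.5 CPM in Epha2-null lenses, against 7.18, 7.86 and 7.15 CPM in Epha2-Q722 lenses and 8.43, 7.06 and 8.18 CPM in wild type lenses. Every disrupted library exceeded every other library, and the log2 fold change was 1.74 (SE 0.076, adjusted p = 6.2e-14). None of the 17 retinal neuron markers that were looked up was among the 8676 genes, which need over 3 CPM in at least 6 libraries to be listed. Lower levels of these markers were not seen, and carry-over of retinal cells was not tested.

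Dusp4 encodes a nuclear phosphatase that inactivates ERK. Its level was 15.8, 13.9 and 16.5 CPM in Epha2-indel722 lenses and 16.5, 16.2 and 15.3 CPM in Epha2-null lenses, against 3.36, 4.15 and 4.95 CPM in Epha2-Q722 lenses and 7.08, 8.12 and 6.13 CPM in wild type lenses. The log2 fold change was 1.52 (SE 0.085, adjusted p = 6.8e-12). Epha2-Q722 lay below wild type here, by -0.76 (adjusted p = 0.001). A gene of the same pathway list, Etv5, an ETS transcription factor induced by FGF signaling, rose by 0.53 (SE 0.057, adjusted p = 5.2e-07), with 49.4 to 66.5 CPM in disrupted lenses against 35.7 to 43.3 CPM in the others. Of the 17 FGF and ERK feedback genes measured, 3 rose (Dusp4, Etv5 and Spry2) and 2 fell (Fgfr2 and Etv1) in the mean contrast, where 9.15% of all genes rose and 9.31% fell, the median was -0.04, and of the list Dusp4 and Etv5 moved alike. On library totals 4 rose, 0 fell (edgeR) and the median was 0.10, where 36.1% of all genes rose, 3.35% fell and the median was 0.15.

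Among the other leading rises, Tent5a, a noncanonical poly(A) polymerase, changed by 1.05, and Pcdhac2, a clustered protocadherin whose annotation overlaps the other alpha protocadherins, by 1.04. The long noncoding RNA Gm14005, at a locus also called Morrbid, had 12.1, 13.1 and 12.9 CPM in Epha2-indel722 lenses and 10.5, 9.48 and 8.47 CPM in Epha2-null lenses, against 1.03, 1 and 2.55 CPM in Epha2-Q722 lenses and 4.22, 3.53 and 4.03 CPM in wild type lenses. Its rise was 2.15 (adjusted p = 2.2e-09), and the noncoding RNA Gm42808 had a log2 fold change of 1.48. Gm42808, like Dcdc2a, is listed only through the disrupted libraries. Gm14005 overlaps other annotated transcripts on both strands, and Epha2-Q722 lay below wild type in this gene by -1.32 (adjusted p = 0.002).

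**Figure D2:**
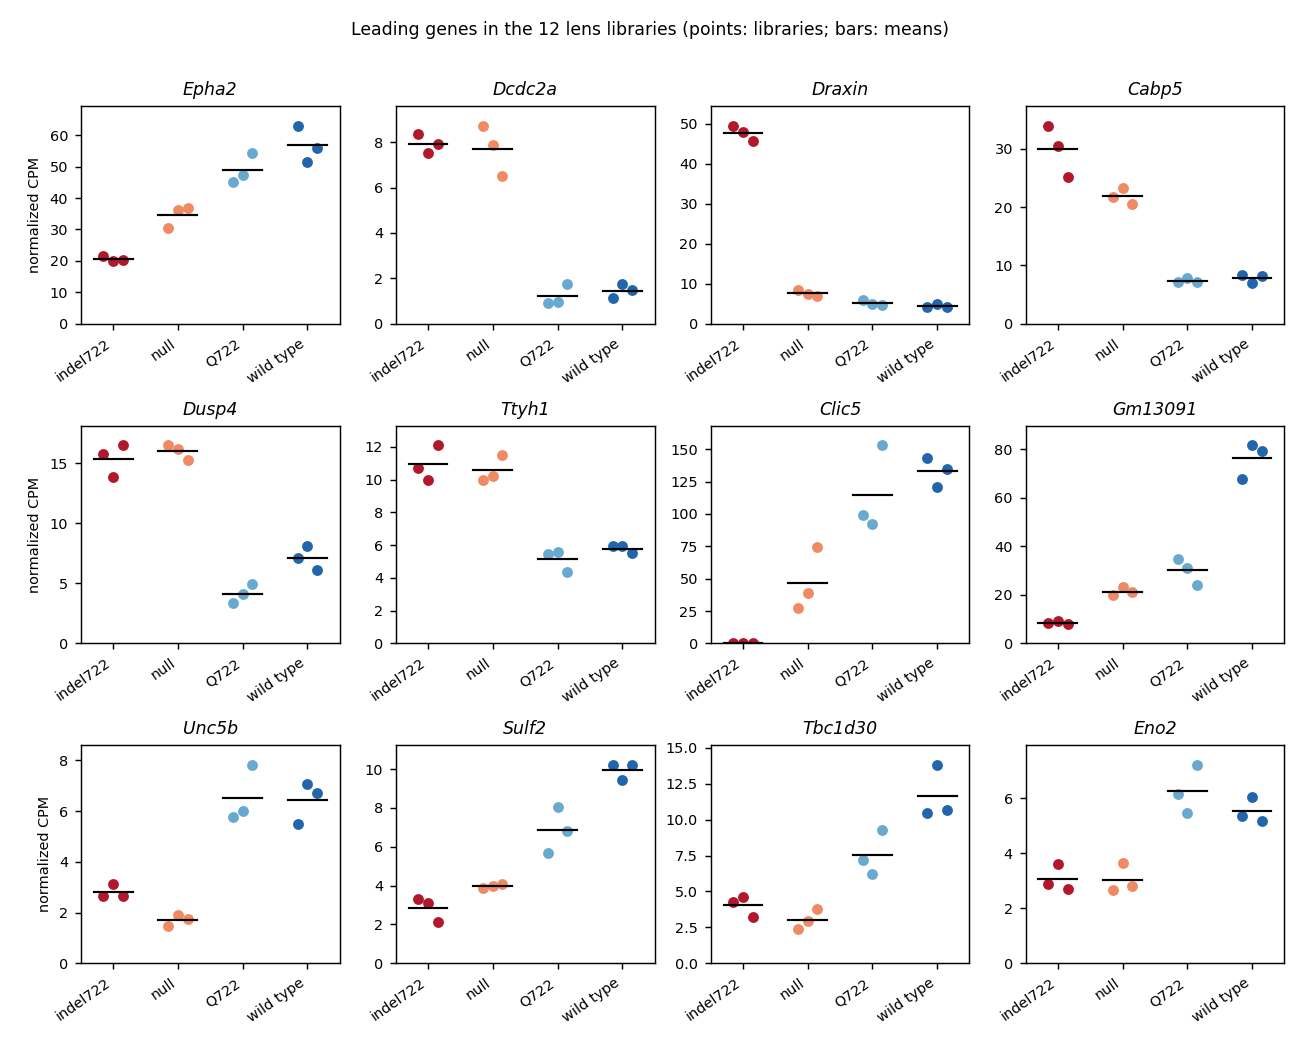
Normalized CPM (vertical axes, from 0) of 12 leading genes in each library, with the genotypes along the horizontal axes and a bar at each genotype's mean of 3 libraries. Dcdc2a, Cabp5, Dusp4 and Ttyh1 stand higher in both disrupted genotypes, Draxin mostly in Epha2-indel722, and Clic5 has at most 0.172 CPM in Epha2-indel722 and 27.3 to 74.5 CPM in Epha2-null.

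Clic5, a chloride intracellular channel protein found at the base of hair cell stereocilia and at cilia, had the largest fitted fall, with almost no reads in Epha2-indel722 and a lower level in Epha2-null. It had 0, 0.0493 and 0.172 CPM in Epha2-indel722 lenses and 27.3, 38.6 and 74.5 CPM in Epha2-null lenses, against 99.0, 91.9 and 153 CPM in Epha2-Q722 lenses and 143, 121 and 135 CPM in wild type lenses. The 3 Epha2-indel722 libraries held 4 Clic5 reads together (95% exact Poisson interval 1.09 to 10.2, counting error only), so the fitted log2 fold change of -6.04 depends on the prior count. Epha2-null was lower than wild type by -1.51 (adjusted p = 0.028) and lower than Epha2-Q722 by -1.29 (adjusted p = 0.037) on the log2 scale. These calls were close to the limit: on leaving out any 1 library other than Epha2-null replicate 3 the largest of the 4 adjusted p-values was 0.050 to 0.12, and on library totals it was 0.061. Among the 15 chloride channel genes measured, 3 rose (Ttyh1, Ano1 and Clic4) and 2 fell (Clic5 and Clic1) in the mean contrast, against 9.15% and 9.31% of all genes. On library totals 8 rose and 1 fell, where 36.1% of all genes rose and 3.35% fell. Of the list besides Clic5, Ttyh1, a tweety-family anion channel, moved alike with a rise of 0.98, at 10 to 12.1 CPM in disrupted lenses against 4.34 to 5.95 CPM in the others.

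Of the 20 cilium and centrosome genes measured, Dcdc2a and Kif3a rose and Clic5 fell. All 3 moved alike, where 2.07% of all genes did. Dcdc2a had to differ to be listed, and the Clic5 calls were close to the limit, so these counts are descriptions. The median over the list was 0.10 (0.24 on library totals, where 9 rose and 1 fell). Of all genes 9.15% rose and 9.31% fell under TMM, and 36.1% rose with a median of 0.15 on library totals. Kif3a, a motor subunit of intraflagellar transport, had 103, 106 and 96.3 CPM in Epha2-indel722 lenses and 105, 112 and 112 CPM in Epha2-null lenses, against 78.4, 73.8 and 78.9 CPM in Epha2-Q722 lenses and 83.9, 83.3 and 80.7 CPM in wild type lenses. The log2 fold change was 0.41 (SE 0.041, adjusted p = 1.9e-07). The disrupted libraries all lay above the others.

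Unc5b, a netrin receptor, had 2.64, 3.11 and 2.64 CPM in Epha2-indel722 lenses and 1.48, 1.92 and 1.73 CPM in Epha2-null lenses, against 5.75, 6.01 and 7.81 CPM in Epha2-Q722 lenses and 5.5, 7.06 and 6.70 CPM in wild type lenses. Its log2 fold change was -1.57 (SE 0.12). Among disrupted libraries only Epha2-indel722 replicate 2 was over the 3 CPM at which the table begins. Its listing thus rested mainly on the other libraries, and its p is not given. Ngef encodes ephexin-1, a guanine nucleotide exchange factor for small GTPases that is known to act downstream of EphA receptors in neurons. It had 56.9, 54.5 and 54.3 CPM in Epha2-indel722 lenses and 25.5, 27.9 and 37.2 CPM in Epha2-null lenses, against 77.3, 72.9 and 76.1 CPM in Epha2-Q722 lenses and 89.8, 87.6 and 90.5 CPM in wild type lenses. The log2 fold change was -1.01 (SE 0.065, adjusted p = 3.5e-09), with the lower levels in Epha2-null. Sulf2, which removes 6-O-sulfates from heparan sulfate, fell by 1.29 on the log2 scale (SE 0.10, adjusted p = 4.9e-09), with 2.12 to 4.09 CPM in disrupted lenses and 5.69 to 10.2 CPM in the others.

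The remaining leading falls had other roles. Tbc1d30, a GTPase-activating protein for Rab proteins, fell by 1.42 on the log2 scale, and Rab3b, a Rab protein of regulated exocytosis, fell by 1 on the same scale. Slx1b, a structure-specific endonuclease that overlaps Gm6939 and Bola2, changed by -1.06, and Eno2, the neuronal enolase, by -0.94. Gadd45a, a gene of the response to DNA damage, changed by -1.02 with 11.2 to 12.8 CPM in Epha2-indel722 lenses and 4.71 to 6.97 CPM in Epha2-null lenses, against 16.2 to 18.4 CPM in Epha2-Q722 lenses and 12.9 to 17.4 CPM in wild type lenses. Gadd45a no longer met the rule on leaving out any Epha2-indel722 library, Epha2-Q722 replicate 2, or wild type replicate 1 or 3 (largest adjusted p 0.053 to 0.19), nor did Rab3b on leaving out Epha2-null replicate 1 or Epha2-Q722 replicate 3 (0.088 and 0.069). On library totals the largest adjusted p was 0.27 for Gadd45a and 0.12 for Rab3b. Gm13091, an annotated antisense transcript within Rere on chromosome 4, had 8.35, 9.27 and 8.15 CPM in Epha2-indel722 lenses and 20, 23.1 and 21.1 CPM in Epha2-null lenses, against 34.8, 31.3 and 24.3 CPM in Epha2-Q722 lenses and 67.9, 81.7 and 79.5 CPM in wild type lenses. The strand setting of the counting is not given in the sources used here, so its reads and those of Rere cannot be told apart.

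**Figure D3:**
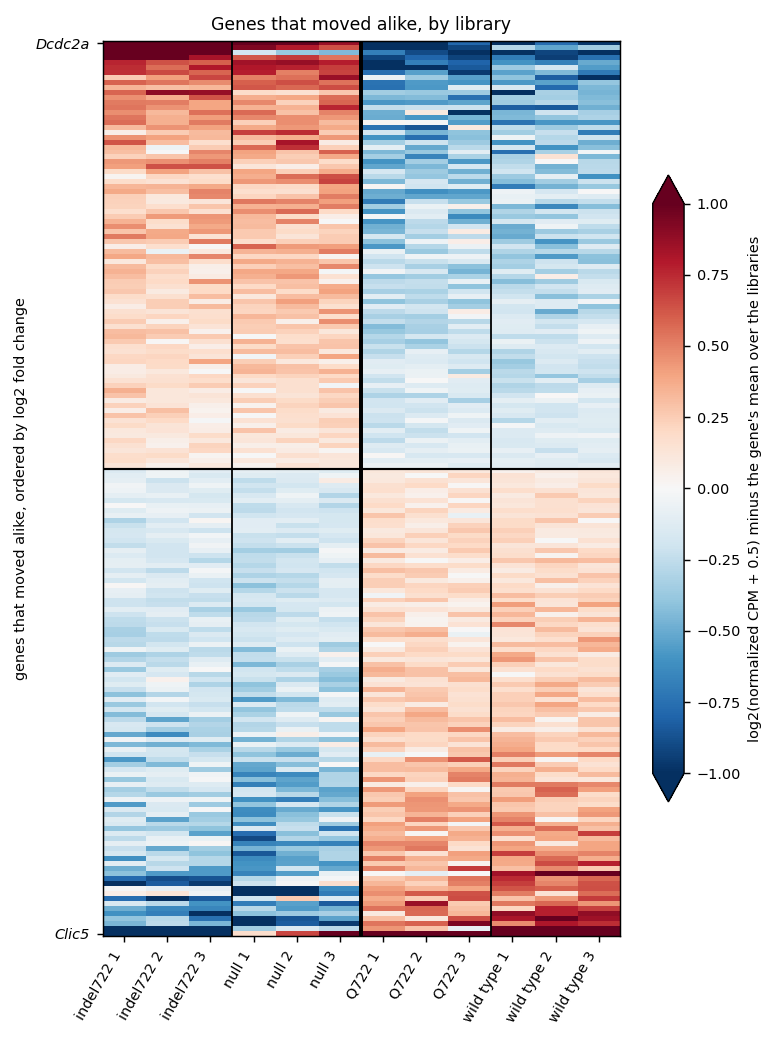
Each row is one of the 180 genes that moved alike, ordered by log2 fold change with Dcdc2a at the top and Clic5 at the bottom, and each column is a library, with the disrupted genotypes left of the thick line. Color gives log2(normalized CPM + 0.5) minus the gene's mean over the 12 libraries, clipped at 1 in each direction. The 86 genes above the horizontal line are redder on the left and the 94 below it are bluer, with most rows pale because the median change was 0.50.

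Glutathione S-transferases, which conjugate glutathione to electrophilic compounds, were among the rises, a grouping made after the values were seen. Of 12 members measured, 5 rose and 1 (Gsto1) fell in the mean contrast, where 9.15% of all genes rose and 9.31% fell, with a median of 0.18, and Gstp1, Gstp2, Gstk1 and Gstm1 moved alike. Gstp1 had 416, 399 and 383 CPM in Epha2-indel722 lenses and 417, 431 and 402 CPM in Epha2-null lenses, against 165, 186 and 183 CPM in Epha2-Q722 lenses and 185, 190 and 211 CPM in wild type lenses. Its log2 fold change was 1.13 with an SE of 0.045 (adjusted p = 1.5e-14), and Epha2-indel722 and Epha2-null differed by -0.06 (adjusted p = 0.63). The neighboring paralog Gstp2 had 25, 22.8 and 22.2 CPM in Epha2-indel722 lenses and 26.3, 27.0 and 25.4 CPM in Epha2-null lenses, against 5.88, 8.86 and 8.12 CPM in Epha2-Q722 lenses and 9.41, 8.89 and 10.1 CPM in wild type lenses, a log2 fold change of 1.53 (SE 0.073). Gstp1 and Gstp2 are near-identical copies, so the division of reads between them is uncertain. Gstk1 changed by 0.89, and Gstm1, at 326 to 416 CPM in disrupted lenses against 259 to 313 CPM in the others, by 0.38. Under scaling by library totals these 4 rises were 1.27, 1.68, 1.03 and 0.53 for Gstp1, Gstp2, Gstk1 and Gstm1. The median of all genes was 0.15 there. Across the scalings, DESeq2, a replicate block and each library left out, Gstp1 and Gstp2 met the rule every time. Gstk1 and Gstm1 did not meet it in every one of these fits.

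Other genes of glutathione and oxidant metabolism, also picked after their values were seen except Hmox1, moved alike in the opposite direction. Gclc, the catalytic subunit of the first enzyme of glutathione synthesis, had 43.5 to 63.6 CPM in disrupted lenses against 64.2 to 78.2 CPM in the others, a change of -0.48 (SE 0.056). Gpx1, a glutathione peroxidase, fell by 0.28 on the log2 scale, and Mpst, a sulfurtransferase, fell by 0.40. Hmox1, which encodes heme oxygenase-1, had 957, 1190 and 1260 CPM in Epha2-indel722 lenses and 1220, 1210 and 1170 CPM in Epha2-null lenses, against 1640, 1950 and 2170 CPM in Epha2-Q722 lenses and 1690, 1440 and 1630 CPM in wild type lenses. Its log2 fold change was -0.58 (SE 0.075, adjusted p = 5.7e-05), and it no longer met the rule on library totals (largest adjusted p = 0.24) or on leaving out any Epha2-null library or wild type replicate 1 or 3 (0.057 to 0.11).

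The promoters of Gstp1 and Gstp2 are shown because these neighbors on chromosome 19 moved together and share sequence. The windows, from RefSeq on GRCm38.p6, run from 250 bases before the RefSeq start of the gene to 50 bases after it. They lie on the reverse strand, at chr19:4037863-4038162 and chr19:4042172-4042471. GENCODE vM21 places Gstp2 at chr19:4040285-4046023, so its window lies inside that span. Capitals mark Maf half-sites (TGCTGA) and CCAAT boxes (CCAAT), each searched on both strands, with no E-box (CACGTG) found in either window.
Gstp1: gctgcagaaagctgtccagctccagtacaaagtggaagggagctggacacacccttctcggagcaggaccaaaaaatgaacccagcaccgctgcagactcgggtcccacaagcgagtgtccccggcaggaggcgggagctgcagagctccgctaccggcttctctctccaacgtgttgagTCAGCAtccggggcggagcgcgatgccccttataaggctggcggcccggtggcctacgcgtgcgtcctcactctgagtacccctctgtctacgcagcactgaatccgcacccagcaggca
Gstp2: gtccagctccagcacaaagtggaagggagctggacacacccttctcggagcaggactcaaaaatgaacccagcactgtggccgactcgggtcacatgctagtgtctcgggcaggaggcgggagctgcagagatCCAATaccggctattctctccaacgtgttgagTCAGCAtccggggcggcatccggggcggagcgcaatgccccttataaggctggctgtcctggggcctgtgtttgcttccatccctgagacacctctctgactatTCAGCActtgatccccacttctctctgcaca

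Global alignment of the 2 windows gave 245 identical bases in 317 aligned columns (77.3%). Gstp1 held 1 Maf half-site and Gstp2 held 2, along with 1 CCAAT box. Promoter windows were found for 7002 of the 8676 genes and for 146 of the 180 that moved alike. A Maf half-site stood in 16.4% of the promoters of genes that moved alike and in 13.8% of all, a CCAAT box in 41.1% and 38.6%, and an E-box in 6.16% and 11.3%. These shares are descriptions of short windows, with no test.

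Sqstm1, the autophagy receptor p62, had 212, 204 and 221 CPM in Epha2-indel722 lenses and 232, 233 and 259 CPM in Epha2-null lenses, against 143, 174 and 188 CPM in Epha2-Q722 lenses and 133, 116 and 135 CPM in wild type lenses. Its log2 fold change was 0.62 (SE 0.059, adjusted p = 5.2e-07), and Epha2-Q722 stood between, 0.40 above wild type (adjusted p = 0.0061). Sqstm1 no longer met the rule without Epha2-indel722 replicate 3 or Epha2-Q722 replicate 1 (largest adjusted p = 0.053 and 0.073). Of 21 lysosome and organelle degradation genes measured, Sqstm1 and Ctsl rose, Hmox1 fell and the median was 0.01, with 12 rising and 1 falling on library totals. Of all genes 9.15% rose and 9.31% fell, and 36.1% rose on library totals. The following genes of protein turnover were picked after their values were seen. Other such genes moved alike downward, among them Rnf113a1 (-0.45) and Uhrf2 (-0.44), as did Glb1, a lysosomal glycosidase (-0.77). Uchl1, a ubiquitin hydrolase, had 448 to 565 CPM in disrupted lenses against 263 to 403 CPM in the others (0.64, SE 0.05). Smaller rises were found for Gabarapl1 (0.43), Ubxn4 (0.35), Syvn1 (0.29) and Psmd6 (0.24), which encode an autophagosome protein, an adaptor of endoplasmic reticulum degradation, a ubiquitin ligase of the same pathway and a proteasome subunit.

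The chaperones showed smaller differences. Hspa5, the chaperone BiP of the endoplasmic reticulum, had 114, 124 and 113 CPM in Epha2-indel722 lenses and 136, 133 and 123 CPM in Epha2-null lenses, against 99.6, 101 and 98.9 CPM in Epha2-Q722 lenses and 85.6, 94.7 and 91.5 CPM in wild type lenses, a log2 fold change of 0.38 (SE 0.043). It no longer met the rule without Epha2-indel722 replicate 2 or Epha2-Q722 replicate 1 (largest adjusted p = 0.11 and 0.058). Of 17 genes of the unfolded protein response measured, Hspa5 and Xbp1 rose, none fell (edgeR) and the median was 0.10. Of 9 heat shock and immediate early genes measured, Dnaja1 and Dnajb1 rose, none fell (edgeR) and the median was 0.05. Dnajb1, a co-chaperone of HSP70, changed by 0.36 (SE 0.046), but the rule was no longer met on leaving out any Epha2-indel722 library, Epha2-null replicate 2, Epha2-Q722 replicate 1 or 2, or wild type replicate 1 or 3 (largest adjusted p 0.060 to 0.28), nor on library totals (0.11). With scaling by library totals, 10 of the 17 and 5 of the 9 genes rose, as did 36.1% of all genes (9.15% under TMM).

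**Figure D4:**
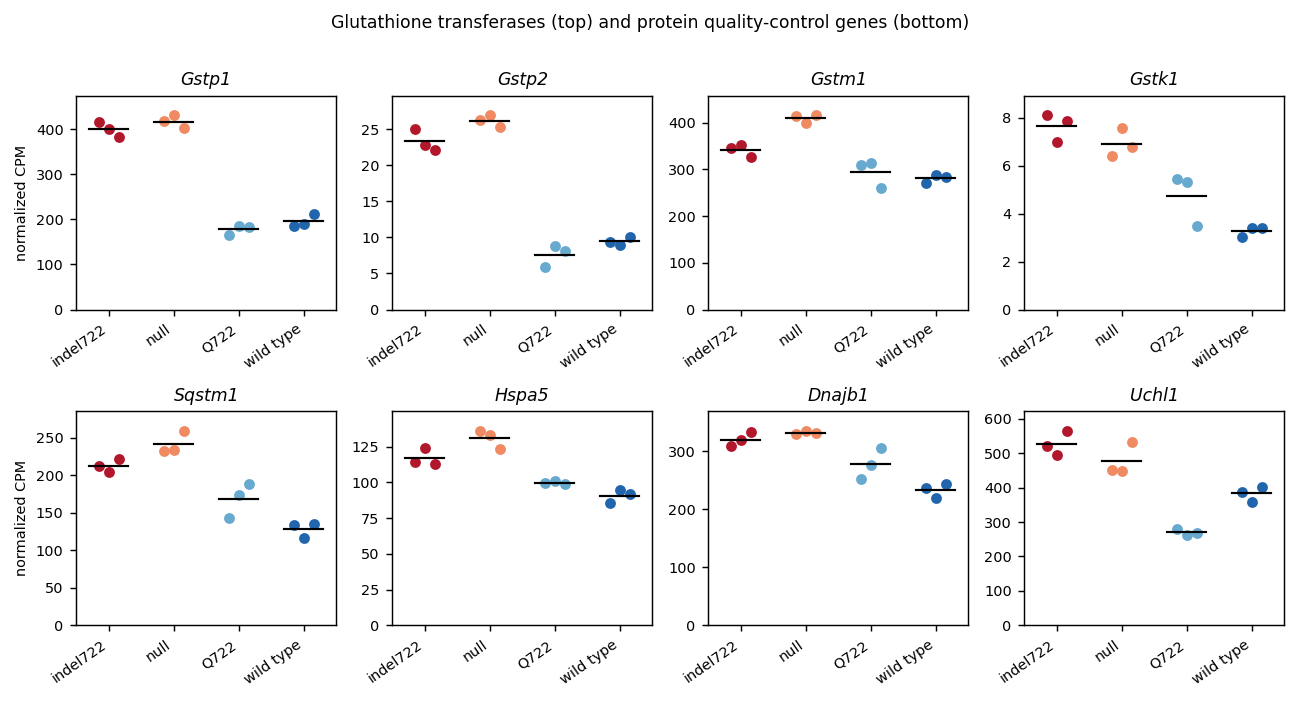
Normalized CPM (vertical axes, from 0) in each library for the glutathione transferases Gstp1, Gstp2, Gstm1 and Gstk1 (top) and for Sqstm1, Hspa5, Dnajb1 and Uchl1 (bottom), with the genotypes along the horizontal axes and bars at the means of 3 libraries. Gstp1 lies at 383 to 431 CPM in the disrupted genotypes and at 165 to 211 CPM in the others, while the separation is narrower for Gstm1 and Dnajb1.

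Crystallins made up a smaller mean share of the reads in disrupted lenses. The 16 crystallin genes measured held 58.4% ± 1.34 of counts in disrupted lenses and 61.9% ± 1.61 in the other lenses (SD, n = 6 each), a difference of -3.46 percentage points (exact permutation test over 924 arrangements, two-sided p = 0.0065). The test treats the 6 libraries of a side as replicates, though they come from different genotypes. Its p therefore does not show a drop shared by both disrupted genotypes. Shares were 58.7% to 60.7% in Epha2-indel722, 57.2% to 57.8% in Epha2-null, 60% to 61.8% in Epha2-Q722 and 62.3% to 64.4% in wild type. The ranges of Epha2-indel722 and Epha2-Q722 overlapped. None of the 16 genes moved alike. In the mean contrast 5 fell and 0 rose (edgeR, TMM), against 9.31% and 9.15% of all genes, with changes of -0.37 for Crybb1, -0.33 for Crybb3, -0.23 for Cryaa and -0.18 for both Cryba1 and Cryba4 and a median of -0.18 over the list. Crybb1 was lower in Epha2-null than in Epha2-indel722 (adjusted p = 0.0012): it averaged 45400 CPM in Epha2-indel722 and 35300 CPM in Epha2-null, against 51900 CPM in Epha2-Q722 and 51800 CPM in wild type. Scaled by library totals, 2 crystallins fell, 1 rose and the median was -0.04. Of all genes 3.35% fell and 36.1% rose there, with a median of 0.15. In libraries from whole lenses, fewer cells of a type and less RNA per cell cannot be told apart.

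Fiber and epithelial genes showed limited shared change. Of 23 fiber differentiation genes, 2 rose (Caprin2 and Tmod1) and 9 fell, against 9.15% and 9.31% of all genes, with a median of -0.13 (0.01 on library totals, where 4 rose and 4 fell), and Sox1 and Hmox1 moved alike. Sox1, a transcription factor needed for fiber elongation, had 232, 216 and 200 CPM in Epha2-indel722 lenses and 173, 189 and 215 CPM in Epha2-null lenses, against 273, 268 and 272 CPM in Epha2-Q722 lenses and 265, 239 and 253 CPM in wild type lenses (-0.36, SE 0.05). It did not meet the rule on library totals (largest adjusted p = 0.69) or on leaving out Epha2-indel722 replicate 2 or 3, Epha2-null replicate 2, or wild type replicate 1 or 3 (0.055 to 0.17). Maf, a transcription factor that drives crystallin genes, fell by 0.36 on the log2 scale without meeting the rule. Among 16 lens epithelium genes, 3 rose and 5 fell, against 9.15% and 9.31% of all genes, with a median of 0.02. On library totals 6 rose and 2 fell, with a median of 0.16, where 36.1% and 3.35% of all genes did. Of this list Gja1 moved alike. Gja1 encodes connexin-43, the epithelial gap junction protein. It had 31.1, 36.5 and 40.3 CPM in Epha2-indel722 lenses and 30.4, 28.1 and 32.9 CPM in Epha2-null lenses, against 55.4, 48.1 and 58.6 CPM in Epha2-Q722 lenses and 51.6, 44.9 and 44.1 CPM in wild type lenses. The log2 fold change was -0.60 (SE 0.068, adjusted p = 6e-06). It no longer met the rule on library totals (largest adjusted p = 0.10) or without Epha2-indel722 replicate 1 or wild type replicate 1 (0.061 in each case).

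Cell contacts and the receptor family followed. Of 20 adherens and gap junction genes, 1 rose (Cdh1) and 8 fell in the mean contrast, against 9.15% and 9.31% of all genes, with a median of -0.05, and 4 rose and 3 fell on library totals, where the median was 0.09. Ctnna1, the alpha-catenin that ties cadherin complexes to actin, moved alike with 87.7 to 101 CPM in disrupted lenses and 107 to 134 CPM in the others (-0.35, SE 0.044), though not on library totals (largest adjusted p = 0.43) or on leaving out Epha2-indel722 replicate 3, Epha2-null replicate 1 or 2, or Epha2-Q722 replicate 1 (0.057 to 0.085). Among 11 Eph receptors and ephrins measured, Epha2 moved alike and no other member did. Ephb2 and Efnb2 had smaller falls (-0.24 and -0.26) and Ephb6 a rise of 0.43 in the mean contrast (4 members rose and 1 fell on library totals), and the ephrin Efnb2 averaged 52.3 CPM in Epha2-indel722 and 57.1 CPM in Epha2-null, against 66.5 CPM in Epha2-Q722 and 64.6 CPM in wild type. Of the 22 Src and cortical actin genes, 3 rose and 1 fell, against 9.15% and 9.31% of all genes, and 0 moved alike. On library totals 7 of them rose and 0 fell (edgeR), where 36.1% of all genes rose and 3.35% fell.

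Of the cholesterol synthesis list, 1 gene moved alike. It was Dhcr7, the last enzyme of the pathway, which had 21.4, 19.2 and 19.2 CPM in Epha2-indel722 lenses and 17.8, 19.4 and 27.2 CPM in Epha2-null lenses, against 28.8, 26.9 and 28.7 CPM in Epha2-Q722 lenses and 51.6, 59.9 and 57.7 CPM in wild type lenses. Epha2-Q722 was itself lower than wild type by -1.01 (adjusted p = 4.8e-05), a disrupted library overlapped the Epha2-Q722 range, and the rule was no longer met on library totals (largest adjusted p = 0.18) or on leaving out Epha2-indel722 replicate 2 or 3, Epha2-null replicate 1 or 2, or any Epha2-Q722 library (0.057 to 0.14). Of 23 cholesterol synthesis genes 1 rose and 3 fell, against 9.15% and 9.31% of all genes, with a median of -0.08. On library totals 4 rose and 1 fell, against 36.1% and 3.35% of all genes, with a median of 0.06. Myl9, a regulatory light chain of myosin, fell by 0.67 on the log2 scale (SE 0.079), with 5.52 to 7.59 CPM in disrupted lenses against 9.65 to 11.6 CPM in the others, and was the member of 11 epithelial-mesenchymal transition genes that moved alike, though not on library totals (largest adjusted p = 0.063). Of those 11, 5 fell and 0 rose (edgeR, TMM), against 9.31% and 9.15% of all genes, with a median of -0.09, and on library totals 2 fell and 1 rose, with a median of 0.05.

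The other lists held no gene that moved alike. Over tubulins, the membrane skeleton, the extracellular matrix, the cell cycle, the interferon response and MHC class I, list medians lay between -0.08 and 0.08 under TMM and between 0.06 and 0.22 on library totals. Of 11 tubulins 2 rose and 1 fell, against 9.15% and 9.31% of all genes. Of 24 extracellular matrix genes 3 rose and 6 fell. On library totals 3 and 5 rose and 0 and 1 fell (edgeR), where 36.1% and 3.35% of all genes did. Tuba1a rose in the mean contrast by 0.42. It averaged 718 CPM in Epha2-indel722, below the 756 CPM of wild type, with 962 CPM in Epha2-null and 509 CPM in Epha2-Q722. Emilin1, an elastic fiber protein, rose by 0.73, with 28.5 CPM in Epha2-indel722 and 55.3 CPM in Epha2-null, against 20.8 CPM in Epha2-Q722 and 27.4 CPM in wild type.

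The size of the shared change differed between the disrupted genotypes in a minority of members. Of the 180 genes, 27 (15%) differed between Epha2-indel722 and Epha2-null at an adjusted p of at most 0.05, where 9.85% of all genes did, and the change was larger in Epha2-indel722 in 13 and in Epha2-null in 14. Epha2-Q722 and wild type differed in 21 of the 180 (11.7%), against 6.37% of all genes, and 135 genes differed in neither pair. A difference that misses the threshold does not show that levels were equal. The rule itself keeps out genes in which either pair lies far apart, so these shares are descriptions.

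A 2-fold threshold on the mean of both disrupted genotypes gave a different picture. Past an adjusted p of 0.05 and a 2-fold change stood 46 genes, 17 higher (0.196%) and 29 lower (0.334%), and 22 of them moved alike, 11 in each direction. The other 24 owed the mean to some of the 4 comparisons. In 7 of them, all lower, both comparisons of Epha2-indel722 passed and neither of Epha2-null did, as in Nipal3, a putative magnesium transporter, with 1.46, 1.08 and 1.09 CPM in Epha2-indel722 lenses and 36.8, 42.7 and 44.1 CPM in Epha2-null lenses, against 36.7, 35.4 and 37.8 CPM in Epha2-Q722 lenses and 38.5, 32.0 and 39.8 CPM in wild type lenses. Nipal3 lies on chromosome 4 at 135445420 to 135495038, within 10 Mb of Epha2. Lyzl4, a lysozyme-like gene, had no read in the 3 Epha2-indel722 libraries and 2.81 to 5.85 CPM elsewhere. Against a floor of 3 counts over the group it was 95.1-fold lower in Epha2-indel722 than in wild type. At the upper 95% exact Poisson limit of 3.69 counts it was 77.3-fold lower.

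Epha2-null alone carried 2 of the 24 genes. AI506816, annotated as a processed transcript, had 1.87, 1.24 and 1.56 CPM in Epha2-null lenses and 62.4, 60.3 and 61.0 CPM in Epha2-indel722 lenses, against 72.0, 61.5 and 64.5 CPM in Epha2-Q722 lenses and 67.8, 68.0 and 65.2 CPM in wild type lenses. A further 5 genes passed in the called direction against Epha2-Q722 and not against wild type, among them H2-K2, annotated as a transcribed pseudogene of the class I histocompatibility family, with no read in Epha2-Q722, 6.58 to 10.2 CPM in disrupted lenses and 9.83 to 11.7 CPM in wild type lenses, and Sez6l, a membrane protein of neurons, with 4.04 to 7.47 CPM in disrupted lenses, 0.300 to 0.868 CPM in Epha2-Q722 and 4.67 to 6.12 CPM in wild type. Against wild type alone, H2-K2 was lower in disrupted lenses (-0.40, adjusted p = 0.0084). The processed pseudogene Gm5345 had the same pattern, and its call in the mean contrast (adjusted p = 0.027) was lost on leaving out Epha2-indel722 replicate 2, any Epha2-null library, Epha2-Q722 replicate 2, or wild type replicate 1 or 2 (adjusted p 0.050 to 0.062). Pcdh17, a protocadherin, was 1.06 higher in the mean contrast, with 44.4, 51.0 and 66.1 CPM in Epha2-indel722 lenses and 26.5, 33.6 and 30.4 CPM in Epha2-null lenses, against 9.31, 9.91 and 15.5 CPM in Epha2-Q722 lenses and 33.8, 26.7 and 35 CPM in wild type lenses.

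**Figure D5:**
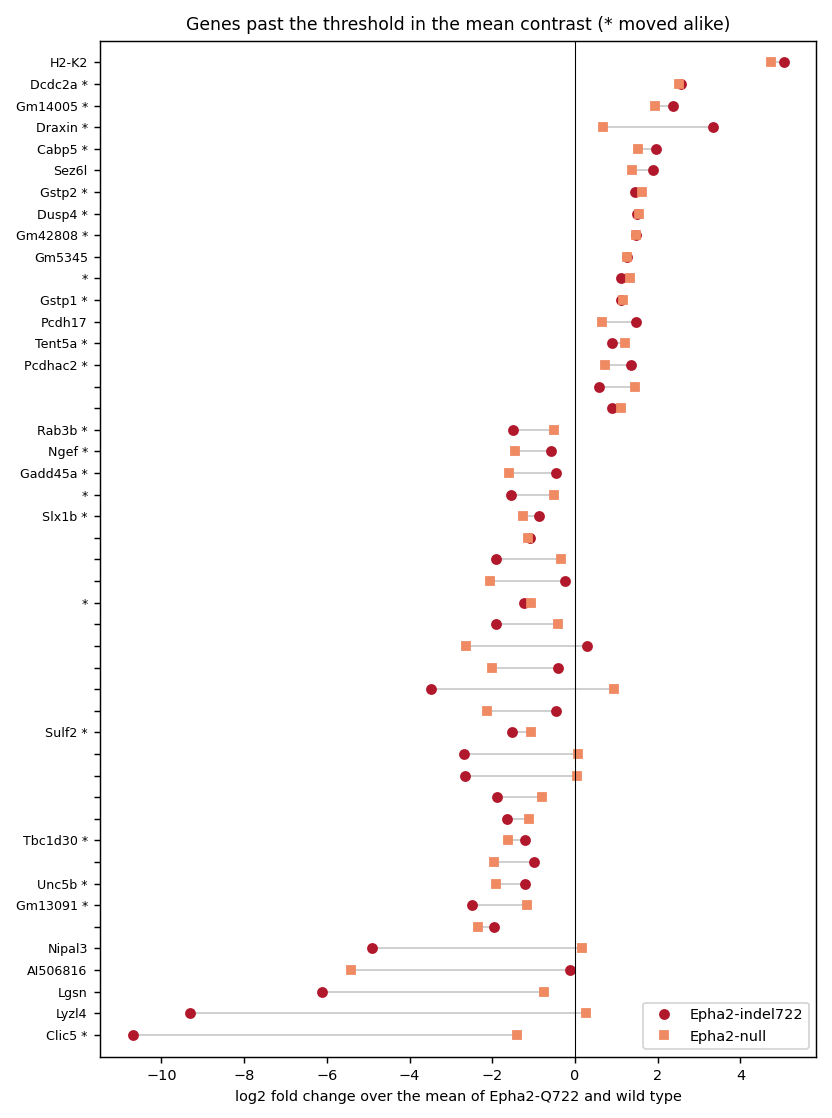
The 46 genes past the adjusted p and 2-fold thresholds in the mean contrast, with the log2 fold change of Epha2-indel722 (circles) and of Epha2-null (squares) over the mean of Epha2-Q722 and wild type on the horizontal axis. The 22 genes that moved alike are starred and genes described in the text are labelled by name: Dcdc2a, Gstp2 and Gstp1 have both marks together, while in Nipal3, Lyzl4 and AI506816 1 mark lies near 0. Values for Clic5, Lyzl4 and H2-K2 rest on libraries with few or no reads and are not bounds.

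Genes that the study discussed for these alleles behaved differently from each other. Lgsn, which encodes the lens protein lengsin, had 0.472, 0.542 and 0.459 CPM in Epha2-indel722 lenses and 15.1, 14.2 and 33.3 CPM in Epha2-null lenses, against 0.582, 24.6 and 18.6 CPM in Epha2-Q722 lenses and 83.2, 75.7 and 84.3 CPM in wild type lenses. It fell in the mean contrast by 3.44 on the log2 scale (adjusted p = 0.0097), but Epha2-null did not differ from Epha2-Q722 beyond the spread (0.46, adjusted p = 0.73), so it did not move alike, and 1 Epha2-Q722 library stood far below its group. Tuba1c, Acer2 and Stard9 had mean contrasts of 0.47, 0.01 and 0.12 (adjusted p = 0.61, 0.93 and 0.74). Acer2, a Golgi ceramidase, was at 121 to 126 CPM in Epha2-indel722 and 6.69 to 7.77 CPM in Epha2-null, against 112 to 134 CPM in Epha2-Q722 and 5.30 to 8.18 CPM in wild type, which cuts across the allele grouping. Wdfy1 was higher in the mean contrast by 0.93 but lower than in Epha2-Q722 alone by -0.67 (adjusted p = 0.00024).

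Among cytoskeletal and membrane genes that the study discussed, Src had 9.47 to 11.5 CPM in disrupted lenses and 10.2 to 11.8 CPM in the others (log2 fold change -0.06, adjusted p = 0.61), and Cdh2, N-cadherin, differed by -0.02 (adjusted p = 0.79). Ctnnb1, beta-catenin, fell by 0.14 on the log2 scale (adjusted p = 0.042), a call that ended on leaving out any Epha2-indel722 library, Epha2-null replicate 1 or 2, Epha2-Q722 replicate 3, or wild type replicate 1 or 3 (adjusted p 0.054 to 0.12). On library totals the log2 fold change was 0.00. Gja3, connexin-46, fell by 0.18 on the log2 scale (adjusted p = 0.0036), with 886 to 1020 CPM in disrupted lenses and 1040 to 1140 CPM in the others, and by 0.03 on library totals (adjusted p = 0.64). Bfsp2, a beaded filament protein of fiber cells, had 2350, 634 and 940 CPM in Epha2-indel722 lenses and 2850, 2890 and 2930 CPM in Epha2-null lenses, against 3070, 3250 and 2240 CPM in Epha2-Q722 lenses and 3350, 3300 and 3470 CPM in wild type lenses. The mean contrast for Bfsp2 was -0.67 (adjusted p = 0.16), and -1.04 (adjusted p = 0.00037) without Epha2-indel722 replicate 1. Acta2, smooth muscle actin, was 0.60 higher (adjusted p = 0.087), with 165 CPM in 1 Epha2-null library and 44.7 to 89.7 CPM in all others. On library totals it was 0.74 higher (adjusted p = 0.023, edgeR). DESeq2's Wald test gave an adjusted p of 0.036, and the exact test on 2 groups of 6 libraries 0.045.

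Library totals ran from 14543069 to 20340688 reads with a median of 18521249. Pools differed in the sex of their animals: Ddx3y, a Y-linked gene, ranged from 5.65 to 25.2 CPM in disrupted libraries and from 0 to 25.2 CPM in the others, and Xist from 0.0567 to 47.4 CPM and from 0.177 to 43.4 CPM. With the Ddx3y level in the model 141 genes moved alike, 137 of them among the 180. Of the named genes Clic5, Dhcr7, Dnajb1 and Ctnna1 no longer met the rule there (largest adjusted p = 0.083, 0.10, 0.073 and 0.064, edgeR). Of the markers of red blood cells, leukocytes, retinal neurons, corneal epithelium and skeletal muscle that were looked up, 0 were among the genes tested, and 2 of 10 endothelial, 3 of 10 pericyte, 2 of 11 pigmented epithelium and 3 of 8 glial markers were. Summed pericyte markers were 67.1 to 195 CPM in disrupted lenses and 58.3 to 86.3 CPM in the others, summed pigmented epithelium markers 13.9 to 20.1 CPM and 19.2 to 22.4 CPM, and summed glial markers 23.2 to 26.9 CPM and 26.5 to 32.7 CPM. Most of the pericyte sum was Acta2, with 165 CPM in 1 Epha2-null library. Of the other pericyte markers, Pdgfrb averaged 16.2 CPM in Epha2-indel722 and 18.6 CPM in Epha2-null, against 13.6 CPM in Epha2-Q722 and 13.7 CPM in wild type. Rgs5 averaged 1.58 and 5.29 CPM, against 2.44 and 3.83 CPM. Glial markers went both ways in the mean contrast: Gfap changed by -0.47, Aqp4 by -0.43 and Glul by 0.29. The part of these cells in the results was not tested. Within 10 Mb of Epha2, 3 of 142 genes moved alike (2.11%), Epha2, Draxin and Gm13091, where 2.07% of all genes did. In the mean contrast 6 of the 142 (4.23%) passed both thresholds, among them Nipal3, Draxin and Gm13091, against 0.530% of all genes. The part of sequence linked to Epha2 in these calls was not tested.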

How the data were processed

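RNA-seq of pooled P7 mouse lenses was analysed in 12 libraries, 3 for each of 4 genotypes. Per the labels and methods, the authors made TruSeq poly(A) libraries, aligned reads to mm10 with STAR (2.5.3a), handled alignments with SAMtools (1.4.1) and obtained gene-level counts from HTSeq (0.11.0). The annotation release and strand setting are not given in the sources used here. The deposited table held whole read counts and CPM computed by the authors on each library's total, for 8676 genes with over 3 CPM in at least 6 libraries, which held 99.3% to 99.5% of reads. Deposited log2 fold changes, p-values and adjusted p-values of the authors' own comparisons, and their average log2 CPM, were not used.

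Counts were tested with edgeR 4.0.16 in R 4.3.3 (glmQLFit with robust estimation, glmQLFTest), with TMM factors on library totals and a 4-level genotype factor, fitting the 12 libraries together (8 residual df). The mean contrast is the mean of Epha2-indel722 and Epha2-null minus the mean of Epha2-Q722 and wild type. The prior count behind log2 fold changes was 0.125, and p-values were adjusted by Benjamini-Hochberg over all 8676 genes. "Rose" and "fell" mean an adjusted p of at most 0.05. filterByExpr removed 0 genes. For 14 genes whose symbols stood as dates the symbol was recovered from the identifier. The procedure was tested on simulated data. DESeq2 1.42.0, other scalings, filters, 2-group fits and leaving out each library were tried as alternatives.

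Members, lists and the naming rule were all chosen with earlier results of these data known. Named were Epha2, the 12 largest rises and 12 largest falls among genes that moved alike without overlap of libraries and reaching a mean of 1 CPM on a side, list members that moved alike, the 4 largest rises and falls of the mean contrast that did not, and genes the study discussed, while others were chosen after their values were seen. A few genes that meet these rules are not reported here. Nothing says whether libraries of a genotype came from separate litters, so p-values measure the spread between these libraries. Same-numbered libraries did not deviate together (correlations of -0.15 to 0.22, 1 of 18 over 0.1), so numbers were not used as pairs. The floor for genes with no read was 3 counts, and intervals cover counting error only.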

Additional observations from a re-analysis of the deposited data

Results flagged for a closer look

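In 10 of the named genes that moved alike, the effect differed between Epha2-indel722 and Epha2-null by a test of that difference (edgeR, adjusted over all genes). Epha2-indel722 minus Epha2-null was -0.74 for Epha2, 2.65 for Draxin, 0.46 for Cabp5, 0.62 for Pcdhac2, -9.29 for Clic5, -1.31 for Gm13091, 0.71 for Unc5b, 1.13 for Gadd45a, 0.87 for Ngef and -0.99 for Rab3b on the log2 scale, with adjusted p-values of 3.5e-16 (Draxin) to 0.021 (Unc5b). The change was larger in Epha2-indel722 for Epha2, Draxin, Cabp5, Pcdhac2, Clic5, Gm13091 and Rab3b, and larger in Epha2-null for Unc5b, Gadd45a and Ngef. The value for Clic5 rests on 4 reads in Epha2-indel722 and is not a bound. Genotypes had 3 libraries each, too few for a search for single libraries that stand apart.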

How the results depend on the processing

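For the 46 genes past both thresholds in the mean contrast (17 higher, 29 lower), the count was 42 to 51 with each library left out in turn, and for the 1602 past the adjusted p alone it was 1300 to 1666. Fitting 2 groups of 6 libraries gave 23 (12 higher, 11 lower) and 793, and the exact test with qCML on the same groups gave 29 and 796. A filter at a mean of 10 CPM gave 21 genes, Epha2-Q722 alone as the comparison gave 79, and library totals in place of TMM gave 3422 at the adjusted p alone (91.5% of them higher, against 49.6% under TMM). The count of 180 genes that moved alike was 120 to 189 with each library left out, 178 with DESeq2 size factors, 145 with DESeq2, 9 with each comparison also 2-fold and 83 at an adjusted p of at most 0.01. With the replicate number as a block it was 175, and 44 genes passed both thresholds. By DESeq2's Wald test Sox1, Gadd45a and Dnajb1 no longer met the rule (largest adjusted p = 0.052, 0.051 and 0.053). Sox1 also missed it with the block (0.055, edgeR), and Dnajb1 with the 10 CPM filter (0.059, edgeR). The mean-contrast call of Gm5345 was lost by DESeq2's Wald test (0.095). With the block the calls of Gm5345 (0.054) and Ctnnb1 (0.050) were lost (edgeR). The model with Ddx3y was chosen after seeing the data. Across the scalings, DESeq2, the block and all left-out libraries, 60 of the 180 (40 higher, 20 lower) met the rule every time, and of 35 named genes that moved alike 23 did so on library totals and in every leave-one-out fit. The crystallin share differed by -3.92 to -2.95 percentage points with each library left out. Signs turned for H2-K2 (-0.40) and Gm5345 (-0.38) against wild type alone and for Wdfy1 (-0.67) against Epha2-Q722 alone, whose construction leaves out the other genotype. Clic5 and Lgsn lost their call as 2 groups (adjusted p = 0.20 and 0.25, edgeR). So did H2-K2, Sez6l, Gm5345, Pcdh17, Lyzl4, AI506816, Nipal3, Wdfy1 and Ctnnb1 (0.16 to 0.85). Other causes were not tested, and genes under 3 CPM were not analysed here.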
